A study of Mus musculus with 18 samples.

Results

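The genes described here encode 10 parts of the mouse kinetochore, the protein assembly that joins a chromosome to spindle microtubules. They were chosen by symbol, and all 10 were found among the 47069 genes of each deposited table. Each sample was the RNA of 1 oocyte of a C57BL/6JAusb mouse, in a gentle lysate from which the nucleus had been spun down, taken from the ovary at the germinal vesicle stage (GV, before meiotic maturation) or at metaphase II (MII, the mature egg). Aged mice of 12 months drank water that held nicotinamide mononucleotide (NMN), from which cells make the coenzyme NAD, at 2 g/L for 4 weeks. Aged controls of 12 months and young controls of 4 weeks had plain water. After 1 of a pair of identical libraries and 1 nearly empty library were left out, 16 oocytes remained. At MII there were 3 oocytes from NMN mice, 3 from aged controls and 3 from young controls. At GV there were 3 from NMN mice, 2 from aged controls and 2 from young controls.

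A kinetochore is built outward from centromeric chromatin. CENP-A, the centromeric form of histone H3, marks the site, and CENP-C binds it and recruits the MIS12 complex. That complex carries the NDC80 complex, a rod whose NDC80 and NUF2 end grips the microtubule and whose SPC24 and SPC25 end docks on the inner layers. CENP-E, a kinesin motor, and CENP-F, a large coiled-coil protein, lie in the fibrous outer corona. Kinetochore function in oocytes is studied in ageing because faulty attachment in meiosis gives eggs with the wrong chromosome number. A growing oocyte stores transcripts and largely stops transcription before maturation, after which RNA levels are set mainly by decay and by changes in poly(A) tails.

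All counts below are the deposited expected counts, scaled to CPM (a gene's counts relative to the total of its library, corrected with TMM factors). A ratio is the log2 of the mean CPM plus 1 of one group over that of the other. A difference is called here when the means lay past 2-fold and no oocyte of one group overlapped the other group. A library is a single oocyte whose mouse is not named, which leaves each group as 1 sample and no p-value to give. Values of single oocytes are given in the order oocyte 1, oocyte 2 and the oocyte of batch 2, where the GV control groups have 2 each. The SD values describe the spread between oocytes, of which an unknown number may share a mouse. Less RNA of a gene per oocyte and a change in the other RNAs around it cannot be told apart from such values.

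The 16 libraries held 2756181 to 5586894 counts, and 3 counts, the smallest number taken as detected, were worth 0.467 to 1.18 CPM on the scaled values. MII NMN oocytes 1 and 2 stood apart. They had 6444 and 5679 genes with a count, against 7725 in the MII NMN oocyte of batch 2, 8539 to 10782 in MII aged controls and 9106 to 13477 in MII young controls. Mitochondrial genes took 43.0% and 33.2% of their counts, against 6.18% in the MII NMN oocyte of batch 2 and 2.76 to 24.4% in the remaining oocytes. Calls that rest on these oocytes are given with and without them. Leaving oocytes out cannot make groups overlap, so such a call can be lost only through its fold. Of 12 oocyte markers, 8 to 11 had at least 3 counts in MII NMN oocytes and 11 or 12 in the remaining groups. Their summed level was 2582 and 3750 CPM in MII NMN oocytes 1 and 2, against 18014 CPM in the MII NMN oocyte of batch 2 and 10081 to 58260 CPM in the remaining oocytes. The anti-Müllerian hormone gene Amh and the granulosa regulator Foxl2 had no count in any oocyte. The summed level of 14 cumulus and granulosa markers was 0 to 55.9 CPM in MII NMN oocytes, 17.4 to 102 CPM in MII aged controls, 34.1 to 292 CPM in MII young controls and 9.61 to 88.2 CPM in GV oocytes. Of 12 proliferation genes, 4 to 10 had at least 3 counts in MII NMN oocytes, where Mcm3 and Mcm5 were at 0, against 9 to 12 in the MII control groups and 12 in every GV oocyte, with sums of 923 to 1913 CPM at MII and 1909 to 3636 CPM at GV. The part of any of these in the results below was not tested.

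The last bases of each transcript carry the polyadenylation signal and, in some messages, a cytoplasmic polyadenylation element (CPE) that CPEB proteins read in maturing oocytes. The 4 sites shown belong to members with a CPE-like motif or with the stage differences described below. Capitals mark TTTTAT or TTTTAAT, the CPE-like motifs searched, in Ndc80 and Cenpe, and AATAAA, the signal, in Spc24 and Dsn1. The sequences are of GENCODE vM21 transcripts on GRCm38, 5′ to 3′ in the sense of the RNA, with T for U. They lie at chr17:71496164-71496193 (minus strand) for Ndc80, chr3:135273514-135273543 (plus) for Cenpe, chr9:21755442-21755471 (minus) for Spc24 and chr2:156995282-156995311 (minus) for Dsn1.
Ndc80: tataacatagtaTTTTATccccaaattatg
Cenpe: ttgaaggaaaaTTTTAATctttccagatgg
Spc24: actcacatacattaAATAAAtactcttttt
Dsn1: gtctggattagaAATAAActtacaagtttt
Only the sense of the RNA was searched, in the last 100 bases of 1 annotated transcript a gene. A CPE-like motif lay there in 2 of the 10 genes, against 17.9% of 19585 genes with a 3′ untranslated region of that length. The signal AATAAA or ATTAAA lay there in 9 of 10, against 78.4%. Only Ndc80 had both, against 14.4%, its TTTTAT starting 58 bases before its AATAAA. These are matches of letters to annotated ends, and the ends used in these oocytes were not measured.

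Spc24 was the member that set the stages apart. Spc24 encodes a small subunit at the inner end of the NDC80 rod (chr9:21755442-21760303, minus strand, ENSMUSG00000074476). Its level was 1.58, 42.5 and 25.6 CPM in the 3 MII NMN oocytes, 25.3, 10.3 and 58.1 CPM in MII aged controls, and 31.0, 20.7 and 8.89 CPM in MII young controls. In GV oocytes it was 256, 214 and 441 CPM after NMN, 272 and 312 CPM in aged controls, and 412 and 360.3 CPM in young controls. Every MII oocyte lay below every GV oocyte, with medians of 25.3 CPM at MII and 312 CPM at GV. The highest MII value, 58.1 CPM, was far under the lowest GV value, 214 CPM, and the same gap was present with library totals, RLE size factors and deposited TPM. Counts of Spc24 were fractional in 14 of 16 oocytes, though no annotated gene overlaps it. Some of its reads may therefore have been split with other features.

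By condition, Spc24 averaged 23.2 ± 20.6 CPM in MII NMN oocytes and 304 ± 120.4 CPM in GV NMN oocytes (SD, n = 3 each), 13.1-fold lower. In aged controls it averaged 31.2 ± 24.5 CPM at MII (SD, n = 3) and 292 ± 28.1 CPM at GV (SD, n = 2), 9.34-fold lower. In young controls it averaged 20.2 ± 11.0 CPM at MII (SD, n = 3) and 386 ± 36.7 CPM at GV (SD, n = 2), 19.1-fold lower. The pooled MII young reads gave 21.3 CPM of the library totals, with an exact 95% Poisson interval of 19.1 to 23.8, and the pooled GV young reads gave 378 CPM with an interval of 364 to 391. Such intervals cover counting error only. The lower Spc24 level at MII was called in all 3 conditions, where 26.8% of 12161 genes were called lower after NMN, 25.9% in aged controls and 15.4% in young controls. The log2 ratio ranged from -6.52 to -3.12 for NMN, from -3.96 to -2.40 for aged controls and from -5.29 to -3.73 for young controls over the alternatives. With MII NMN oocytes 1 and 2 left out the NMN ratio was -3.52 and still called. The call in aged controls was lost only when the nearly empty GV library was kept.

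Over all 12161 genes kept, 849 (6.98%) had all 9 MII oocytes below all 7 GV oocytes, and 33 (0.271%) had all MII oocytes above. Of the 10 kinetochore genes Spc24 alone did so, and none of the 33 other kinetochore genes did. With MII NMN oocytes 1 and 2 left out, Spc24 was still the only one, beside 985 genes (8.10%). Leaving oocytes out cannot undo the gap of Spc24, so only other genes could join it. When any 1 MII oocyte was left out, none of the other members joined it, and 0 to 3 of the 33 others did. The 3 appeared without the batch 2 MII NMN oocyte. Without that oocyte 1 of the 10, Dsn1, had all MII oocytes above all GV oocytes, beside 0.419% of all genes.

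**Figure D1:**
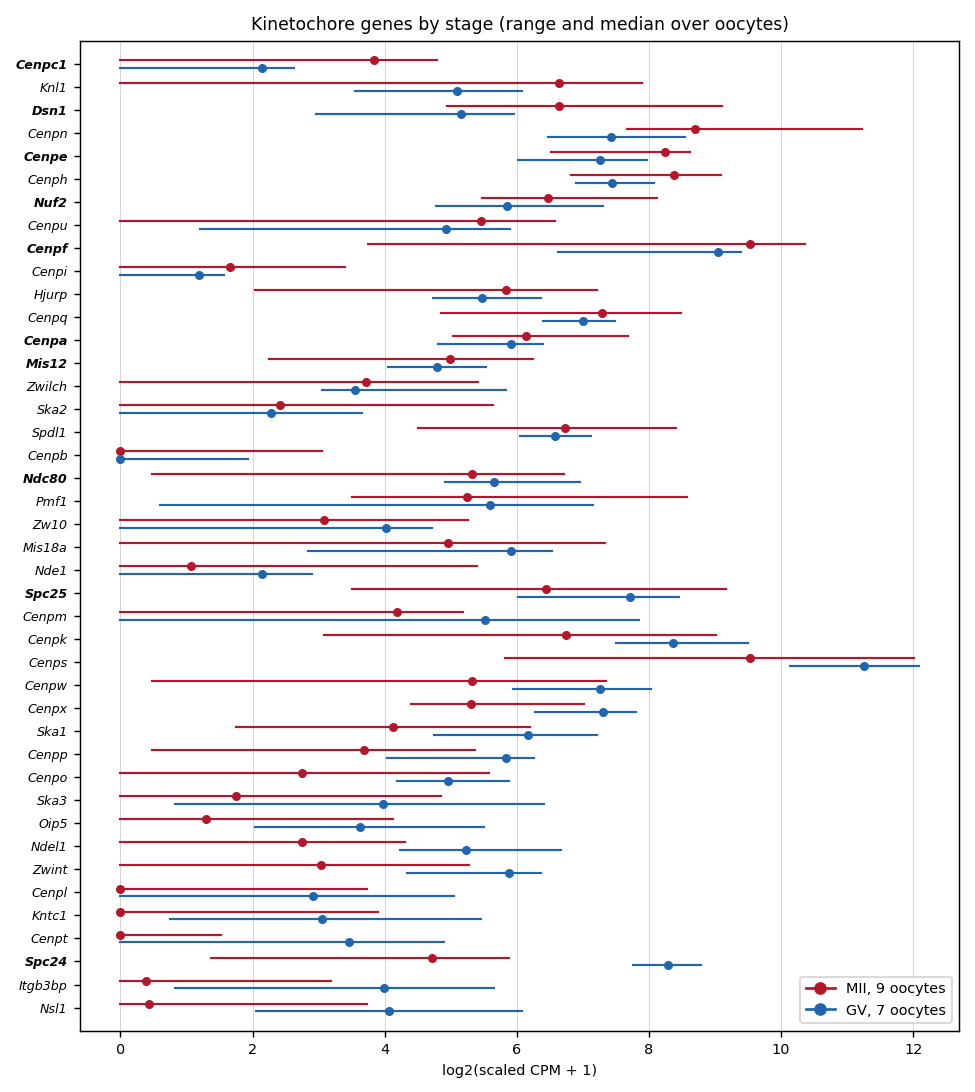
Range and median over oocytes of each kinetochore gene on the log2(scaled CPM + 1) axis, for 9 MII oocytes beside 7 GV oocytes, with the 10 members in bold among other kinetochore genes. Spc24 is the gene whose 2 ranges do not meet, with MII at 1.58 to 58.1 CPM and GV at 214 to 441 CPM.

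The 4 subunits of the NDC80 complex are equal partners in the protein rod, but their transcripts did not share one pattern. On the TPM scale, which is per length, Spc24 held 0.204, 5.52 and 14.6% of the summed level of the 4 subunits in MII NMN oocytes. It held 14.5, 5.25 and 45.0% in MII aged controls and 9.99, 11.6 and 3.33% in MII young controls. In GV oocytes it held 41.4, 35.1 and 72.2% after NMN, 49.1 and 69.2% in aged controls, and 72.0 and 52.5% in young controls. In 8 of 9 MII oocytes the share lay below every GV oocyte, the exception being the batch 2 MII aged oocyte. The summed TPM of the 4 subunits was 88.2 to 419 at MII and 369.8 to 501 at GV, where the ranges overlapped.

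**Figure D2:**
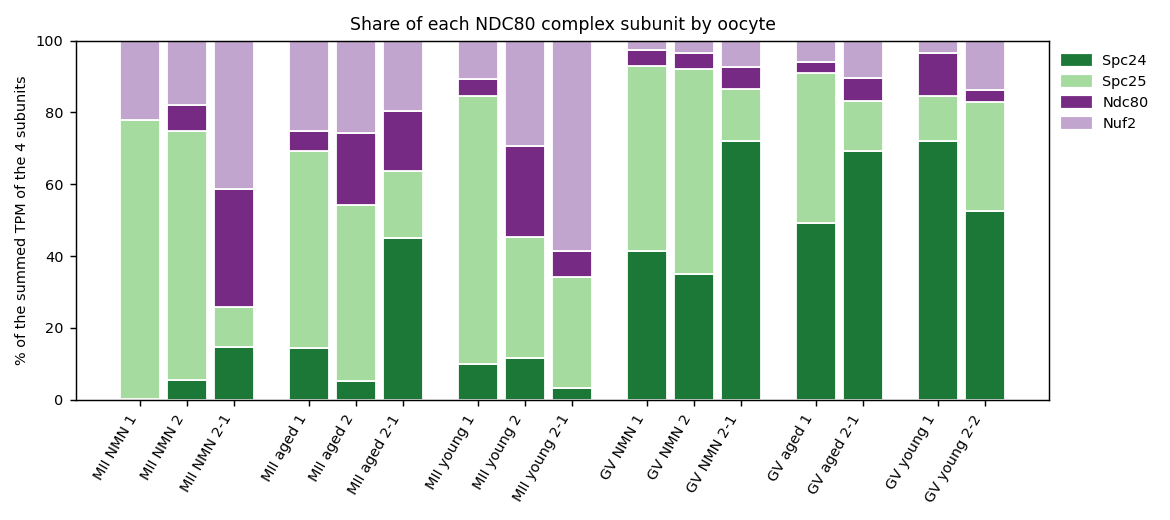
Share, in percent of the summed TPM, of Ndc80, Nuf2, Spc24 and Spc25 in each oocyte, 1 bar an oocyte, MII to the left of GV and NMN, aged and young within each stage. Spc24 takes 35.1 to 72.2% of the bar in GV oocytes and 0.204 to 45.0% in MII oocytes.

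Spc25 encodes the direct partner of SPC24 (chr2:69193895-69206194, minus strand, ENSMUSG00000005233), and it did not share the stage difference. It was at 575, 535 and 10.3 CPM in MII NMN oocytes, 86.1, 98.3 and 24.3 CPM in MII aged controls, and 236, 61.5 and 83.5 CPM in MII young controls. In GV oocytes it was at 321, 349 and 88.8 CPM after NMN, 233 and 63.6 CPM in aged controls, and 72.1 and 209 CPM in young controls. The stages overlapped in each condition. The batch 2 oocyte was the lowest in 4 groups, those of NMN and aged control mice at both stages. Across all 16 oocytes the Pearson correlation of Spc24 with Spc25, on log2(CPM + 1), was 0.01, which is a description of libraries that share batch and stage. The Spc24 to Spc25 ratio of TPM was 0.00263 to 2.39 at MII and 0.617 to 5.73 at GV, and at MII it was highest in the batch 2 aged oocyte.

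Ndc80 (also called Hec1) encodes the subunit with the main microtubule-binding head (chr17:71496100-71526857, minus strand, ENSMUSG00000024056). It was at 0.395, 97.7 and 104 CPM in MII NMN oocytes, 17.2, 71.3 and 38.9 CPM in MII aged controls, and 26.1, 81.1 and 34.9 CPM in MII young controls. It was at 49.2, 49.4 and 66.1 CPM in GV NMN oocytes, 29.3 and 51.6 CPM in GV aged controls, and 123 and 39.9 CPM in GV young controls. All 6 groups overlapped, and MII NMN oocyte 1 stood alone with a single count. No call was made for Ndc80 in any of the 9 comparisons. Ndc80 overlaps the rRNA gene Gm23115 on the same strand, and its count was fractional in 1 oocyte.

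Nuf2 encodes the other microtubule-end subunit, which pairs with NDC80 (chr1:169497934-169531464, minus strand, ENSMUSG00000026683). It was at 276, 229 and 126 CPM in MII NMN oocytes, 72.0, 86.3 and 43.6 CPM in MII aged controls, and 54.8, 87.6 and 263 CPM in MII young controls. It was at 26.5, 35.6 and 75.7 CPM in GV NMN oocytes, 56.6 and 78.8 CPM in GV aged controls, and 31.4 and 157 CPM in GV young controls. Every MII NMN oocyte lay above every MII aged oocyte and above every GV NMN oocyte, while MII young oocytes spanned both. The mean was 210.3 ± 76.9 CPM in MII NMN oocytes and 67.3 ± 21.7 CPM in MII aged controls (SD, n = 3 each), a log2 ratio of 1.63 or 3.13-fold, where 1.31% of genes were called higher.

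That Nuf2 call rested on MII NMN oocytes 1 and 2, the libraries with few detected genes. With both left out the log2 ratio was 0.89, and with mean deposited TPM it was 0.60, so the call was lost in both cases. Against the 45.9 ± 26.2 CPM of GV NMN oocytes (SD, n = 3), Nuf2 was 4.58-fold higher at MII, a log2 ratio of 2.17, where 3.34% of genes were called higher. In batch 2 alone that log2 ratio was 0.73, and with MII NMN oocytes 1 and 2 left out it was 1.43 and still called.

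**Figure D3:**
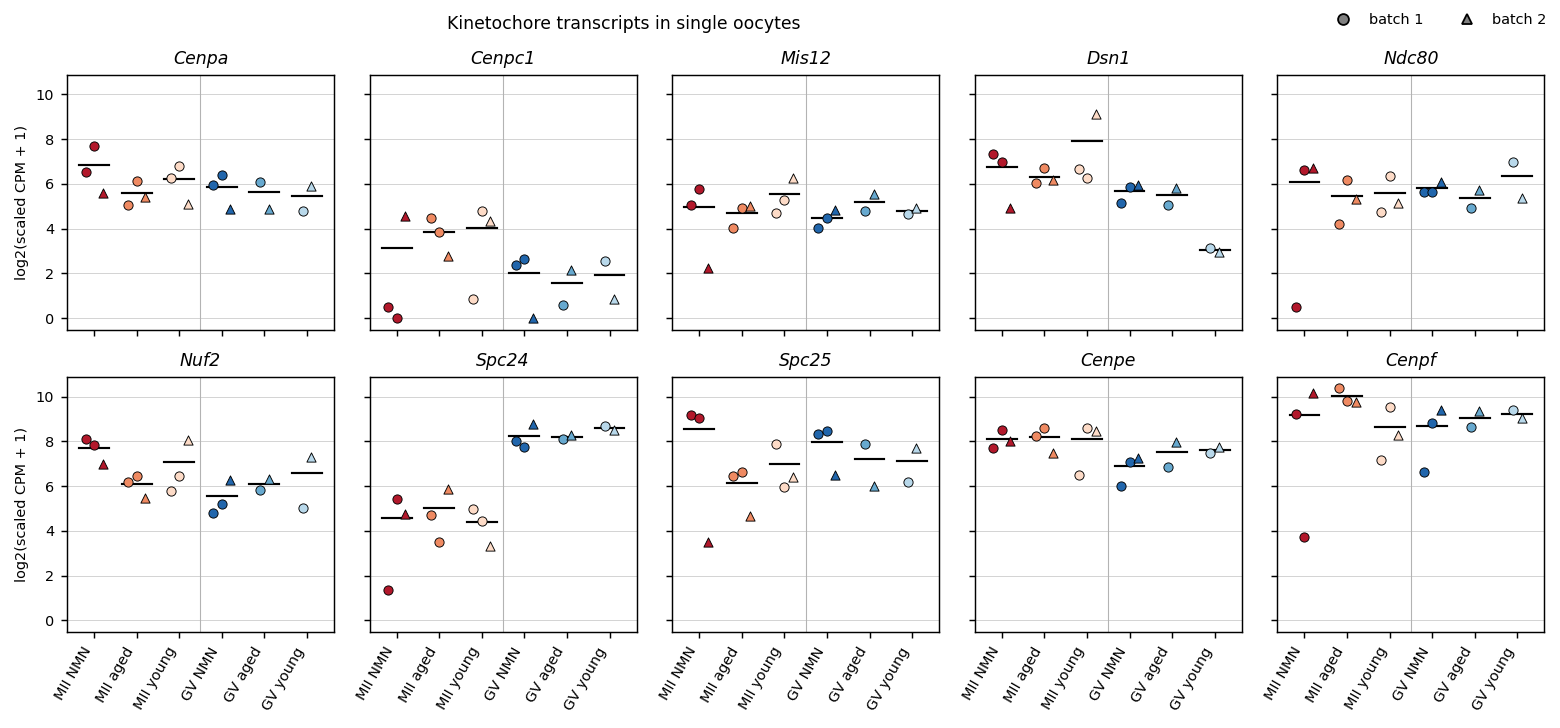
Level of each of the 10 genes in each oocyte as log2(scaled CPM + 1), with MII NMN, MII aged, MII young, GV NMN, GV aged and GV young from left to right. Circles are batch 1, triangles batch 2 and black bars group means. Spc24 is low in all 9 MII oocytes, and Dsn1 is lowest in the 2 GV young oocytes at 6.78 and 7.72 CPM.

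The MIS12 complex, represented by Mis12 and Dsn1, bridges CENP-C and the NDC80 rod. Dsn1, the subunit whose phosphorylation controls binding to CENP-C (chr2:156995265-157007154, minus strand, ENSMUSG00000027635), was low in GV young oocytes. Its level was 34.5, 57.3 and 61.1 CPM in GV NMN oocytes, 32.6 and 55.5 CPM in GV aged controls, and 7.72 and 6.78 CPM in GV young controls. Both GV young oocytes lay under every other oocyte of the series. At MII it was at 163, 124 and 29.7 CPM in NMN oocytes, 64.6, 103 and 70.1 CPM in aged controls, and 98.9, 76.9 and 548 CPM in young controls. In MII, 8 of 9 oocytes exceeded the highest GV value of 61.1 CPM, the exception being the batch 2 NMN oocyte.

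In GV oocytes Dsn1 averaged 44.1 ± 16.2 CPM in aged controls and 7.25 ± 0.665 CPM in young controls (SD, n = 2 each), a log2 ratio of 2.45 or 6.07-fold. In GV NMN oocytes it averaged 51.0 ± 14.4 CPM (SD, n = 3), 7.03-fold above the same young controls, a log2 ratio of 2.65. Both calls use the same 2 young oocytes, which held 30 and 26 counts of Dsn1, and the pooled value was 7.09 CPM with an exact 95% Poisson interval of 5.36 to 9.21. Of all genes 19.7% were called higher in aged than in young GV oocytes and 14.2% higher after NMN than in young. The age call was lost only when the nearly empty library was kept, and the ratio against NMN kept its call in all 17 alternatives.

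From the same low GV value, Dsn1 in young oocytes was 33.3-fold higher at MII, with 241 ± 266 CPM at MII (SD, n = 3) and 7.25 ± 0.665 CPM at GV (SD, n = 2). The log2 ratio was 4.88, where 16.6% of genes were called higher. It was 3.35 in batch 1 alone and 6.14 in batch 2 alone. The only GV young oocyte taken as batch 1 is the merged library, which is also titled batch 2, so the value of 3.35 may mix batches. The batch 2 young oocyte with 548 CPM gave much of the mean. Between MII and GV the ratios of 0.83 in aged controls and 1.04 after NMN were not called.

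Mis12, the name-giving subunit of the complex (chr11:71019611-71027371, plus strand, ENSMUSG00000040599), was at 3.75 to 53.4 CPM in MII NMN oocytes, 15.3 to 30.9 CPM in MII aged controls and 24.9 to 74.8 CPM in MII young controls. It was at 15.5 to 27.7 CPM in GV NMN oocytes, 26.8 and 45.2 CPM in GV aged controls, and 23.9 and 29.0 CPM in GV young controls. Neighbouring groups overlapped throughout and no comparison gave a call. Mis12 overlaps Derl2 on the opposite strand, and the counting is not stated to use strand, so reads of the 2 genes may be mixed.

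Of the inner, chromatin-bound pair, Cenpa (chr5:30666777-30674830, plus strand, ENSMUSG00000029177) was called in no comparison. Its oocytes ran from 47.2 to 204 CPM in MII NMN, from 31.9 to 69.3 CPM in MII aged controls and from 33.1 to 109 CPM in MII young controls. GV oocytes ran from 28.8 to 83.1 CPM after NMN, with 67.7 and 28.7 CPM in aged controls and 27.0 and 59.0 CPM in young controls. The batch 2 oocyte was the lowest in 4 groups, and the groups overlapped in every pair of neighbours.

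Cenpc1 (chr5:86012024-86065583, minus strand, ENSMUSG00000029253) encodes CENP-C, which binds CENP-A nucleosomes and anchors the outer layers. It was at 0.395, 0 and 22.8 CPM in MII NMN oocytes, 21.5, 13.3 and 5.81 CPM in MII aged controls, and 0.837, 26.6 and 19.0 CPM in MII young controls. In GV oocytes it was at 4.11, 5.16 and 0 CPM after NMN, 0.526 and 3.44 CPM in aged controls, and 4.89 and 0.783 CPM in young controls. No GV oocyte exceeded 5.16 CPM, whereas 6 of 9 MII oocytes did.

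Cenpc1 was called in aged controls, with 13.5 ± 7.83 CPM at MII (SD, n = 3) and 1.98 ± 2.06 CPM at GV (SD, n = 2), 6.82-fold higher, where 8.32% of genes were called higher. The ratio of 2.28 on the log2 scale became 0.62 in batch 2 alone. The GV aged value rests on 17 counts. Whether this stage difference is larger in aged than in young oocytes was not tested, and in young controls the oocytes overlapped, with 15.5 ± 13.2 CPM at MII (SD, n = 3) and 2.84 ± 2.91 CPM at GV (SD, n = 2).

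Of the corona pair, Cenpe encodes the plus-end-directed motor that carries chromosomes to the spindle equator (chr3:135212537-135273611, plus strand, ENSMUSG00000045328). It was at 210.5, 363 and 262 CPM in MII NMN oocytes, 300.4, 388 and 177 CPM in MII aged controls, and 90.6, 392 and 354 CPM in MII young controls. It was at 64.0, 135 and 153 CPM in GV NMN oocytes, 116 and 249 CPM in GV aged controls, and 180.2 and 215 CPM in GV young controls. The 3 MII NMN oocytes lay above the 3 GV NMN oocytes, while the stages overlapped in both control groups.

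After NMN, Cenpe averaged 278 ± 77.8 CPM at MII and 117 ± 47.0 CPM at GV (SD, n = 3 each), 2.37-fold higher, a log2 ratio of 1.24. The call was lost with library totals, with the median of oocytes, in batch 2 alone and without GV NMN oocyte 1, and it was kept at 1.15 with MII NMN oocytes 1 and 2 left out. Among conditions the MII means were 278, 288 and 279 CPM in NMN, aged and young oocytes, far closer together than the oocytes within a group.

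Cenpf (chr1:189640606-189688086, minus strand, ENSMUSG00000026605) encodes a microtubule-binding protein of the corona that also serves at the nuclear envelope. It was at 598, 12.4 and 1135 CPM in MII NMN oocytes, 1319, 893 and 871 CPM in MII aged controls, and 141, 738 and 315 CPM in MII young controls. It was at 97.6, 452 and 670.4 CPM in GV NMN oocytes, 394 and 661 CPM in GV aged controls, and 668 and 527 CPM in GV young controls. All MII aged oocytes lay above all MII young oocytes and above all GV oocytes.

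At MII, Cenpf averaged 1028 ± 253 CPM in aged controls and 398 ± 307 CPM in young controls (SD, n = 3 each), a log2 ratio of 1.37 or 2.58-fold, where 1.76% of genes were called higher. The lowest aged value, 871 CPM, was close to the highest young value, 738 CPM. Without MII young oocyte 1 the log2 ratio was 0.96 and the call was lost. It was also lost with library totals, at a ratio of 1.42, and with mean deposited TPM, at 1.21, where the oocytes of the groups overlapped. Cenpf overlaps the processed pseudogene Gm37239 and had fractional counts in 12 of 16 oocytes, so some of its reads may have been split with other features. Spc24 had fractional counts in 14 of 16 oocytes.

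Calls for age and NMN are set out in the plot of log2 ratios. Aged against young oocytes gave 1 call of 10 at GV (Dsn1, higher), where 19.7% of all genes were called higher and 5.68% lower. It gave 1 of 10 at MII (Cenpf, higher), where 1.76% were called higher and 5.39% lower. Counts this small over 10 genes are near such shares. In the median over the 10 genes the log2 ratio was -0.15 at GV and -0.39 at MII, beside 0.29 and -0.27 over all genes. At GV the split of 4 higher and 6 lower became 6 and 4 with library totals and with TPM, in which Cenpe and Cenpf changed sign. At MII the split was 3 and 7, and 2 and 8 with TPM. With 1 oocyte left out at a time, fewer oocytes had to be clear of each other. The calls then numbered 2 to 3 at GV, the 3 without either batch 2 oocyte (aged or young). At MII they numbered 1 to 2, the 2 without young oocyte 1 or aged oocyte 2. The shares of all genes were not recomputed for these counts.

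NMN against aged controls gave no call at GV, where 2.61% of all genes were called higher and 5.39% lower. The median log2 ratio there was 0.13, beside 0.01 over all genes. The split was 6 higher and 4 lower, against 4 and 6 with library totals and 5 and 5 with TPM. At MII, Nuf2 was the only call, where 1.31% of all genes were called higher and 11.3% lower. The median over the 10 genes was 0.33, and that over all genes was -0.33. With MII NMN oocytes 1 and 2 left out the median of the 10 was -0.077, and that of all genes was not recomputed. With all MII oocytes, 7 of 10 members lay above the median of all genes, and 7 or 8 did under the other scalings, although the split of 6 higher and 4 lower became 7 and 3 with RLE size factors, 4 and 6 with library totals and 3 and 7 with TPM. The scalings moved the median of all genes by up to 0.35 in this comparison. Leaving out single oocytes gave 0 to 3 calls at GV, the 3 without aged oocyte 1. It gave 1 to 5 at MII, the 5 without the batch 2 NMN oocyte. The shares of all genes with those oocytes left out were not computed, so such counts are not results about the members.

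Spc25 had the largest ratio of the 10 between NMN and aged MII oocytes, 2.41 on the log2 scale, without a call. Its mean was 373 ± 315 CPM in NMN oocytes and 69.6 ± 39.6 CPM in aged controls (SD, n = 3 each). The batch 2 NMN oocyte, at 10.3 CPM, was under all 3 aged oocytes. The other 2 NMN oocytes were those with few detected genes.

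NMN oocytes set against the same young controls as above gave 1 call at GV, Dsn1, higher. There 14.2% of all genes were called higher and 6.51% lower. At MII they gave none, where 0.888% of genes were called higher and 14.7% lower. The median of the 10 genes was -0.32 at GV and 0.35 at MII, beside 0.26 and -0.68 over all genes. With MII NMN oocytes 1 and 2 left out it was -0.096 at MII, and that of all genes was not recomputed. With deposited TPM the MII median was -0.66 and 9 of 10 genes were lower, against 4 of 10 with TMM, yet 8 of 10 lay above the median of all genes on both scales. Leaving out single oocytes gave 1 to 4 calls at GV, the 4 without the batch 2 young oocyte. It gave 0 to 2 at MII, the 2 without the batch 2 NMN oocyte. The shares of all genes were not recomputed for these counts.

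**Figure D4:**
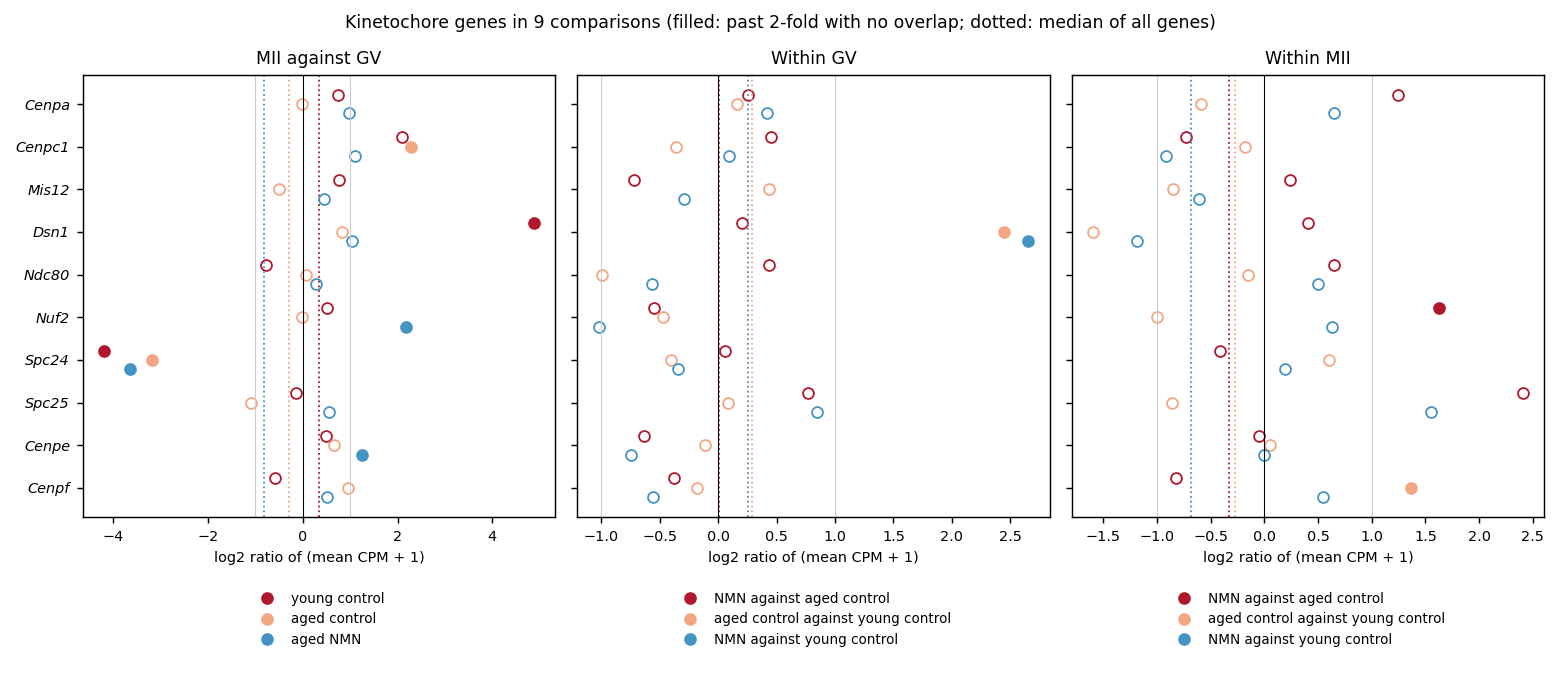
Log2 ratio of (mean CPM + 1) for each of the 10 genes in 9 comparisons, with filled points for called differences and dotted lines for the median of all 12161 genes. Spc24 lies between -4.19 and -3.18 in the 3 comparisons of MII with GV, and Dsn1 reaches 4.88 in young oocytes.

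Between stages the members lay around or above the whole set. The median log2 ratio of MII over GV was 0.76 after NMN, 0.03 in aged controls and 0.50 in young controls, beside -0.82, -0.29 and 0.35 over all genes. With MII NMN oocytes 1 and 2 left out the NMN value of the members was 0.31, and that of all genes was not recomputed. After NMN, 9 of 10 members were higher at MII with all 3 count scalings and 8 of 10 with TPM, with Spc24 lower on each. In aged controls 5 were higher, against 4 with RLE size factors, 7 with library totals and 8 with TPM. In young controls 6 were higher, against 9 with TPM. The calls numbered 3 of 10 after NMN, 2 of 10 in aged controls and 2 of 10 in young controls. After NMN 2 were higher and 1 lower, and in each control condition 1 was higher and 1 lower. Over all genes 3.34% were called higher and 26.8% lower after NMN, 8.32% and 25.9% in aged controls, and 16.6% and 15.4% in young controls. In both directions together the number of calls is near that of genes in general. After NMN more members were called higher than lower, the reverse of all genes, and that difference was not tested. With single oocytes left out the calls numbered 2 to 6, 2 to 6 and 3 to 5. The most came without the batch 2 MII NMN oocyte, the batch 2 GV aged oocyte and the batch 2 GV young oocyte. The shares of all genes were not recomputed for these counts.

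The 33 other kinetochore genes, a wider list of inner and outer components, were also set side by side between stages. After NMN, 1 was called higher and 11 lower, with a median of -1.01, or -1.09 with genes at 0 set to their bound. In aged controls 5 were called higher and 11 lower, with a median of -0.70, or -0.94 with bounds. In young controls 4 were called higher and 7 lower, with a median of -0.40. These counts stand beside the shares of all genes given for each stage comparison, and a difference between the lists was not tested. For age, 6 were called higher and 3 lower in aged than in young GV oocytes, beside 19.7% and 5.68% of all genes. At MII 0 were called higher and 2 lower, beside 1.76% and 5.39% of all genes. For NMN against aged controls, 1 was called higher and 1 lower at GV, beside 2.61% and 5.39% of all genes. At MII 1 was called higher and 2 lower, beside 1.31% and 11.3% of all genes. NMN against young controls gave 3 higher and 1 lower at GV, beside 14.2% and 6.51% of all genes. At MII it gave 0 higher and 6 lower, beside 0.888% and 14.7% of all genes. Named below are the genes of each comparison with the largest ratios, up to 3 in each direction where the higher group reached 10 CPM.

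Other subunits of the MIS12 complex had stage patterns of their own. Nsl1 was at 0.132 ± 0.228 CPM in MII NMN oocytes and 29.1 ± 32.9 CPM in GV NMN oocytes (SD, n = 3 each). In young controls it was at 0.622 ± 0.745 CPM at MII (SD, n = 3) and 36.8 ± 24.0 CPM at GV (SD, n = 2). In aged controls it was at 4.23 ± 7.03 CPM at MII (SD, n = 3) and 9.07 ± 8.36 CPM at GV (SD, n = 2), where the stages overlapped. In GV oocytes Pmf1, the fourth subunit, was at 98.1 ± 47.3 CPM after NMN (SD, n = 3) and 67.5 ± 69.7 CPM in aged controls, against 6.44 ± 8.37 CPM in young controls (SD, n = 2 each), like Dsn1 lowest in the young.

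Knl1, whose product completes the core microtubule-binding network, was 2.69-fold higher at MII than at GV in aged controls, with 116 ± 61.0 CPM at MII (SD, n = 3) and 43.0 ± 26.3 CPM at GV (SD, n = 2). Its partner Zwint was 15.9-fold lower there, with 3.49 ± 3.61 CPM at MII (SD, n = 3) and 55.6 ± 3.25 CPM at GV (SD, n = 2). Zwint was also 3.81-fold lower in aged than in young MII oocytes, where the young value was 13.3 ± 4.46 CPM (SD, n = 3 each).

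Of the inner scaffold that surrounds CENP-A, Cenph was higher at MII in 2 conditions. It was at 407 ± 119 CPM in MII NMN oocytes and 181 ± 19.0 CPM in GV NMN oocytes (SD, n = 3 each), and at 319 ± 104 CPM in MII aged controls (SD, n = 3) and 129 ± 16.5 CPM in GV aged controls (SD, n = 2). Cenpn was 3.43-fold and Cenpu 3.61-fold higher at MII in young controls. Itgb3bp, which encodes CENP-R, was 22.9-fold lower at MII in aged controls. After NMN it had 1 count in all MII oocytes together, against 27.9 ± 18.9 CPM in GV oocytes (SD, n = 3). Cenpm was 7.61-fold lower at MII in aged controls and 5.05-fold higher in aged than in young GV oocytes. At GV it was at 109 ± 90.7 CPM in aged controls and 21.6 ± 30.6 CPM in young controls (SD, n = 2 each).

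Among the factors that load CENP-A, Oip5 was 18.6-fold lower at MII in young controls. It was at 1.28 ± 1.16 CPM at MII (SD, n = 3) and 23.7 ± 29.2 CPM at GV (SD, n = 2). Hjurp, the CENP-A chaperone, was 2.16-fold lower in aged than in young GV oocytes, with 34.7 ± 12.9 CPM in aged controls and 74.9 ± 8.76 CPM in young controls (SD, n = 2 each).

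The corona also holds the RZZ complex of Zw10, Zwilch and Kntc1, which works with the adaptor Spdl1 to bring in dynein. Zw10 had no count in any MII NMN oocyte, against 21.2 ± 4.11 CPM in GV NMN oocytes and 21.3 ± 15.0 CPM in MII young controls (SD, n = 3 each). Taking 3 counts over the group as the floor, it was at least 63.4-fold lower than at GV and at least 63.6-fold lower than in MII young oocytes. In GV oocytes Zw10 was 4.46-fold higher in aged than in young controls and 6.60-fold higher after NMN than in young controls, and in young controls it was 6.62-fold higher at MII. All of these folds use the same GV young value of 3.22 ± 4.55 CPM (SD, n = 2), which rests on 25 counts.

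Spdl1 was at 49.3 ± 24.1 CPM in MII NMN oocytes, against 182 ± 80.3 CPM in MII aged controls and 219 ± 118 CPM in MII young controls (SD, n = 3 each). Zwilch was 21.3-fold lower in MII NMN than in MII young oocytes, and Kntc1 was 7.49-fold lower in GV NMN than in GV aged oocytes. Ndel1, a dynein cofactor, was 11.7-fold lower at MII in young controls and 2.60-fold lower in aged than in young GV oocytes.

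A few calls remain. Cenps was 5.40-fold higher in MII NMN than in MII aged oocytes, with 2733 ± 1504 CPM in NMN oocytes and 506 ± 264 CPM in aged controls (SD, n = 3 each). At GV, Itgb3bp was 2.31-fold higher after NMN than in aged controls. Cenpu was 3.10-fold higher and Cenpw 2.21-fold lower after NMN than in young controls. Of the 33 genes, 17 to 22 had at least 3 counts in MII NMN oocytes, 24 to 28 in MII aged controls, 25 to 32 in MII young controls and 28 to 33 in GV oocytes, so the low values in MII NMN oocytes came with fewer detected genes. With MII NMN oocytes 1 and 2 left out, only the fold could fail, since leaving out oocytes cannot make groups overlap. The batch 2 oocyte alone stayed past 2-fold for each of the 33 genes named in a comparison with MII NMN, except Cenph between stages, at 0.87. That is 1 oocyte. In that oocyte Spdl1 was at 65.9 CPM, Zwilch at 3.12 CPM, Zw10 at 0 and Cenps at 1133 CPM.

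In levels per length, which member led differed by stage. Spc24 had the highest TPM of the 10 in 5 of 7 GV oocytes and in no MII oocyte. Its mean was 12.6 ± 10.3 TPM in MII NMN oocytes and 212 ± 53.4 TPM in GV NMN oocytes (SD, n = 3 each). Cenpf led in 5 of 9 MII oocytes, among them all 3 of the aged controls. The summed TPM of all 10 was 514 to 548 in MII NMN oocytes, 381 to 913 in MII aged controls, 324 to 1267 in MII young controls and 551 to 713 in GV oocytes, and the stages overlapped. TPM depends on the effective length given for each oocyte, which ran from 1039 to 1127 bases for Spc24 but from 547 to 1128 for Spc25 and from 788 to 2766 for Mis12. For Cenpf it ran from 2923 to 5141 bases, while the annotated transcript searched above has 11130. Which member led therefore depends on these lengths.

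The order of the 6 group means was mostly within the spread of the oocytes. Of all neighbouring groups in the orders of the 10 genes, 4 pairs did not overlap. They were MII aged over GV NMN and GV aged over GV young for Dsn1, GV aged over MII aged for Spc24, and MII aged over GV young for Cenpf.

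Correlations among the members were of both signs. Over 45 pairs of members and 16 oocytes, the Pearson r of log2(CPM + 1) ran from -0.70 for Dsn1 with Spc24 to 0.65 for Nuf2 with Cenpe, with a median of -0.06 and 22 pairs above 0. All such values are over oocytes that share stage, batch and depth. The genes most like Spc24 were Hint1 and Rgs10, with r of 0.97 each, and those most like Cenpf were Akap9 at 0.98 and Arid4a at 0.96. Dsn1 lay closest to Tubg2 and Map2k1, at 0.88 each, and Ndc80 to Kif4 at 0.87 and Ift81 at 0.86. Nuf2 was closest to Sephs2 at 0.90, Spc25 to Hmgn1 and Arpc5l at 0.91 each, Cenpe to Socs6 at 0.92, Cenpc1 to Zfp407 at 0.91, Cenpa to Obox5 at 0.89 and Mis12 to Ankrd6 at 0.87.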

How the data were processed

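Each of 18 libraries was made from 1 oocyte. Per the submitters' processing notes, the software was Trim Galore 0.4.5, FastQC 0.11.8, Cufflinks and TopHat2 2.1.1, and the builds were GRCm38 and mm10. The authors deposited an expected count for every gene, which the file headers name and which was not normalised. The authors also deposited TPM, scaled for effective length and library, used here for levels between genes and as an alternative. Which step made the tables is not given in the sources used here. Of 47069 identifiers, 46574 had a symbol in GENCODE vM21, the source of all coordinates.

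GV young control 1 and 2-1 were identical in every gene and counted as 1 oocyte of batch 1. Of the detected genes of that merged library, 14.5% had fractional counts. The share was 19.5 to 29.0% in the other batch 1 libraries and 11.9 to 14.6% in batch 2. By that share it is like batch 2, so values of batch 1 alone that use it may mix batches. GV aged control 2-2, with 5009 counts, was left out by the minimum of 100000. Batch was read from the titles, and the MII NMN library titled batch 2 without a further number was taken as oocyte 2 of batch 1.

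Counts were rounded, filtered with filterByExpr of edgeR 4.0.16 (minimum count 10, by group), which kept 12161 genes, all 10 members and all 33 other kinetochore genes among them, and scaled with TMM (R 4.3.3). Ratios used 1 CPM added to each mean. The calculation was tested on simulated data. Alternatives were RLE size factors, library totals, TPM, no filter, 0.25 or 5 CPM added, medians of oocytes, a 1.5-fold threshold, each batch alone, the left-out libraries kept, and each oocyte left out. The members, lists and rules were chosen with earlier results of these data known. Of the 33 other genes, named ones were the 3 largest ratios per direction and comparison that were called, where the higher group reached 10 CPM, and 1 gene of that list is not reported here by name. For likeness, each member was given the genes with the highest Pearson r.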

Additional observations from a re-analysis of the deposited data

How the results depend on the processing

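Each library is 1 oocyte, so the values carry no test and depend on single oocytes. No paired analysis was possible because the groups share oocyte numbers that tie no animals together and no result comes from a test. Of 1590 values of single genes under alternatives, 1476 moved by less than the spread between oocytes and no call changed sign. Counting depth limits Cenpc1 most, which had 0 to 19 counts in GV oocytes.

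The median log2 ratio of the 10 genes for NMN against aged GV oocytes was 0.13, beside -0.10 with library totals, 0.71 with the nearly empty library kept and -0.085 with TPM. For aged against young MII oocytes it was -0.39, and -1.12 in batch 2 alone. For NMN against young MII oocytes it was 0.35, and -0.66 with TPM. For NMN against aged MII oocytes it was 0.33, but -0.26 with library totals and -0.44 with TPM, so its sign depended on the scaling. Those moves were within the spread between oocytes. For MII against GV it was 0.50 in young controls, and 1.22 with TPM, and 0.03 in aged controls, with 0.60 when the nearly empty library was kept and 0.53 in batch 1 alone. The cause was not tested. With 1 oocyte left out the medians ran from -0.13 to 0.19 for NMN against aged at GV, from -0.55 to 0.29 for aged against young at GV, and from -0.61 to -0.11 for NMN against young at GV. At MII they ran from 0.04 to 0.50, from -0.85 to 0.10 and from -0.15 to 0.46 in the same order. Between stages they ran from 0.16 to 0.86 in young controls, from -0.30 to 0.38 in aged controls and from 0.58 to 1.05 after NMN.

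Fewer oocytes had to be clear of each other within a batch, by the construction of the rule, and most counts of called members were higher there. The share of all genes called was not computed for any alternative setting. The counts of calls in this paragraph are therefore not results about the members. In batch 1 and batch 2 alone they were 1 and 1 for NMN against aged GV oocytes (main 0), 5 and 4 for aged against young GV (main 1), and 5 and 4 for NMN against young GV (main 1). They were 5 and 7 for NMN against aged MII (main 1), 3 and 7 for NMN against young MII (main 0), and 1 and 7 for aged against young MII (main 1). For MII against GV they were 5 and 5 in young controls (main 2), 6 and 2 in aged controls (main 2), and 7 and 5 after NMN (main 3). With the merged GV young library taken as batch 2, batch 2 gave 2 for aged against young GV, 2 for NMN against young GV and 6 for MII against GV in young controls. With the MII NMN library titled batch 2 taken as batch 2, batches 1 and 2 gave 5 and 3 for NMN against aged MII, 5 and 5 for NMN against young MII, and 7 and 4 for MII against GV. With MII NMN oocytes 1 and 2 left out, chosen after seeing the data, the counts were 4 for NMN against aged MII, 5 for NMN against young MII and 7 for MII against GV. A 1.5-fold threshold gave 2 for NMN against young GV and 4 for MII against GV in aged controls. TPM gave 0 for NMN against aged MII, 0 for aged against young MII and 4 for MII against GV in aged controls. Library totals gave 0 for aged against young MII, and the nearly empty library gave 0 for aged against young GV. With 1 oocyte left out the counts ran from 0 to 3, 2 to 3 and 1 to 4 at GV, in the order NMN against aged, aged against young and NMN against young. They ran from 1 to 5, 1 to 2 and 0 to 2 at MII, and from 3 to 5, 2 to 6 and 2 to 6 between stages in young, aged and NMN oocytes. The count of members with all MII oocytes below all GV oocytes stayed at 1, Spc24, which leaving out oocytes could not remove. The 33 others gave 0 to 3.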
